A study of Arabidopsis thaliana with 4 samples.

Results

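GID1A and GID1B encode gibberellin receptors, and their transcript levels were compared between whole seedlings of the Arabidopsis thaliana mutant exo70A1-2 and of wild-type Col-0. Both members were chosen by name, with earlier results of these data known. They were taken as probe sets that the array annotation assigns to the symbol GID1A or GID1B and to no other gene. This gave 2 genes, with 1 probe set each, of 13356 genes that have such a probe set on the ATH1 array. GID1A (AT3G05120) is read by probe set 259302_at and GID1B (AT3G63010) by probe set 251200_at. Total RNA was hybridised to 4 one-colour arrays, 2 from exo70A1-2 and 2 from Col-0, numbered replicates 1 and 2 in each genotype. The mutant carries the allele exo70A1-2 in the Col-0 background, and the labels do not describe the lesion. The gene EXO70A1 codes for one of the exocyst proteins, which together hold secretory vesicles at the plasma membrane before fusion. Seedlings of both genotypes were 1 week old, had been kept cold as seed for 3 days, and stood upright on 1.6% agar with Murashige & Skoog salts at 22 °C in constant light.

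Gibberellins are diterpenoid hormones that promote germination, elongation and flowering. The hormone binds a soluble GID1 protein, and the loaded receptor then binds DELLA proteins, nuclear repressors of growth. The F-box protein SLY1 marks the captured DELLA proteins for breakdown, which releases growth. Arabidopsis has 3 receptor genes, GID1A, GID1B and GID1C, whose functions overlap. Transcripts of the receptor genes are known to be under feedback, being higher when gibberellin is low and DELLA proteins accumulate.

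Each array gave a MAS5 signal, a linear brightness per probe set, and the median signal per array lay between 37.3 and 38.8. Probe sets with a mean log2 signal in the upper 60% were tested, which puts the lower limit at a signal of 21.9, called the dim limit here, and left 13648 of 22746. Across those probe sets, log2 signals correlated between replicates at 0.987 in exo70A1-2 and at 0.980 in Col-0, against 0.932 to 0.955 between genotypes. These are correlations over probe sets, not over independent samples. Whether arrays of a genotype stand for separate plates or harvests is not given in the labels, and p-values therefore cover the spread among these arrays only, which may be technical. No probe set was named for EXO70A1, so the genotype labels could not be checked on its transcript. Of 7 organ markers listed for a whole seedling 6 had a probe set of their own name, 4 from roots or ER bodies and 2 from green tissue. All 6 were above the dim limit on every array, with log2 fold changes between -0.16 for RCA and 0.22 for EXPA18, and none passed the test. In RNA of whole seedlings, a change in the share of cells that express a gene cannot be told apart from a change in RNA per cell.

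GID1B was higher in exo70A1-2, and the difference passed the test across the 13648 probe sets kept by the filter, though not with no filter. Its signal was 59.6 and 62.8 on the exo70A1-2 arrays, against 33.5 and 38.5 on the Col-0 arrays. Both mutant arrays lay above both Col-0 arrays, and all 4 values lay above the dim limit. The means were 61.2 ± 2.30 in exo70A1-2 and 36.0 ± 3.57 in Col-0 (SD, n = 2 arrays each). The log2 fold change was 0.77 (standard error, SE, 0.18), or 1.70-fold, with a 95% interval of 1.29-fold to 2.26-fold (limma, adjusted p = 0.0222). Standard errors and intervals are those of a fit that shares the estimate of spread across probe sets.

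The measured difference of GID1A was smaller and did not pass the test. Its signal was 175 and 159.9 in exo70A1-2, against 142 and 139 in Col-0. The mutant arrays were again both above the Col-0 arrays, with a gap between the genotypes that was close to the gap between the mutant arrays themselves. The means were 167 ± 10.5 in exo70A1-2 and 141 ± 2.32 in Col-0 (SD, n = 2 arrays each). The log2 fold change was 0.25 (SE 0.13), or 1.19-fold, and the 95% interval ran from 0.966-fold to 1.46-fold (limma, adjusted p = 0.233). That interval includes no change, and it also includes a rise of up to 1.46-fold.

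So 1 of the 2 receptor genes was called higher, while 8.54% of all tested probe sets were called higher and 7.50% were called lower. As the genes were chosen with earlier results of these data known, this is not an independent test. A separation of the genotypes without overlap, as both genes showed in the same direction, was found in 30.0% of the tested probe sets for mutant above Col-0. With 2 arrays per genotype such a separation is common and adds little to the fit. The GID1B change was larger in size than that of most probe sets, since 8.17% of those tested had a larger absolute log2 fold change. For GID1A this share was 49.1%, which places its difference at the middle of the array.

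**Figure D1:**
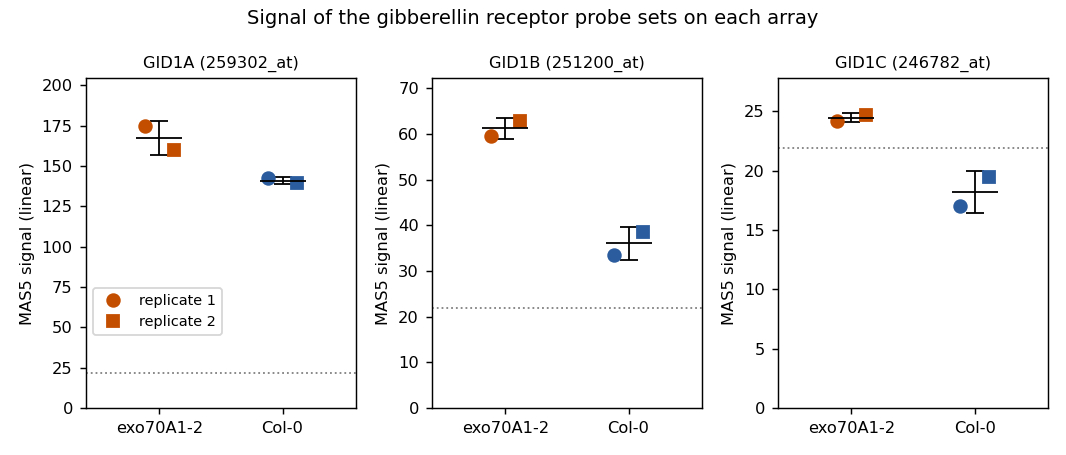
Linear MAS5 signal of GID1A, GID1B and GID1C on each of the 4 arrays, with exo70A1-2 in orange left of Col-0 in blue, circles for replicate 1 and squares for replicate 2. Black bars show the mean and SD of 2 arrays, the dotted line is the dim limit of 21.9, and each panel has its own axis from 0; the mutant arrays lie above the Col-0 arrays in all 3 panels, and the Col-0 signals of GID1C lie under the dim limit.

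Set array against array, every one of the 4 pairings of a mutant with a Col-0 array gave a higher GID1B signal in the mutant. The exo70A1-2 replicate 1 array was 1.78 times Col-0 replicate 1 and 1.55 times Col-0 replicate 2. The exo70A1-2 replicate 2 array was 1.88 times Col-0 replicate 1 and 1.63 times Col-0 replicate 2. Most of the range in these ratios came from the Col-0 arrays, which differed by 0.20 on the log2 scale for GID1B, while the mutant arrays differed by 0.08. For GID1A the pairings ran from 1.12-fold to 1.26-fold, and here the mutant arrays differed more, by 0.13 on the log2 scale against 0.03 between the Col-0 arrays. Over all tested probe sets the median difference between replicates was 0.15 on the log2 scale in exo70A1-2 and 0.19 in Col-0, so neither gene was unusually variable. Replicate 2 was the brighter array of each genotype for GID1B, and replicate 1 was the brighter one for GID1A.

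**Figure D2:**
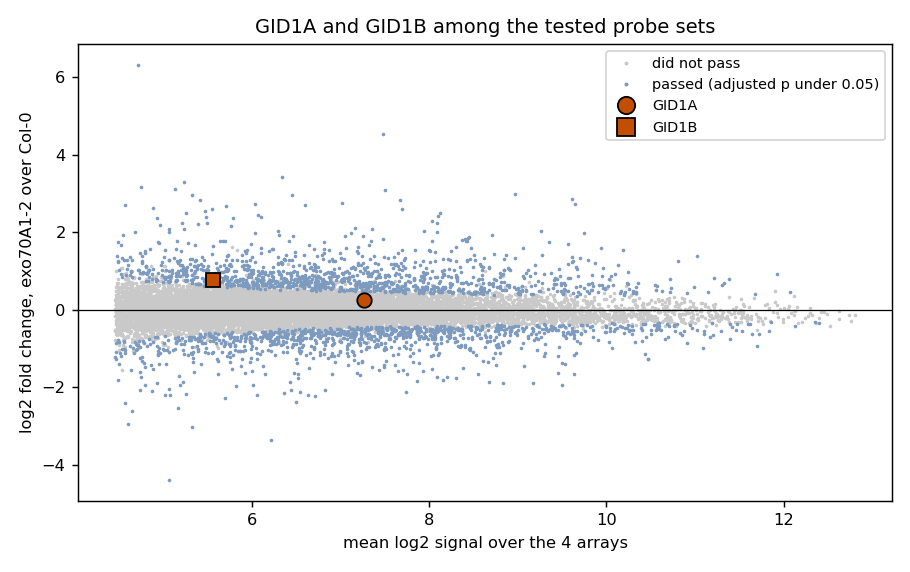
Log2 fold change of exo70A1-2 over Col-0 against the mean log2 signal of the 4 arrays, for the 13648 tested probe sets, in blue where the adjusted p was under 0.05 and in grey otherwise. GID1B (square) stands at 0.77, near the lower edge of the called probe sets at its signal, and GID1A (circle) stands at 0.25 inside the grey band.

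The responses of the receptor genes were set against each other through the log2 ratio of GID1B to GID1A within each array, from which any brightness shift shared by an array cancels. This ratio was -1.55 and -1.35 in exo70A1-2, against -2.09 and -1.85 in Col-0. Its level has no meaning of its own, since signals of different probe sets are not on a common scale. Its shift between genotypes was 0.52 on the log2 scale, from a mean of -1.45 ± 0.15 in exo70A1-2 and -1.97 ± 0.17 in Col-0 (SD, n = 2 arrays each). The genotypes did not overlap. An exact two-sided permutation test gave p = 0.333, the smallest value it can give with 2 arrays against 2, so this test could not have passed and decides nothing about the difference. No other test of the difference was run, and it is given as a measured value only.

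The third receptor gene, GID1C (AT5G27320, probe set 246782_at), was too dim to be tested. Its signal was 24.2 and 24.7 in exo70A1-2, against 17.0 and 19.5 in Col-0. Both Col-0 values lay under the dim limit and both mutant values just above it. The mutant mean was 1.12 times that limit, which sets no lower bound on the difference. A separation in this direction was found in 24.8% of all 22746 probe sets. With dim probe sets kept in the fit, its log2 fold change of 0.43 (SE 0.29) did not pass (limma, adjusted p = 0.445).

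The call for GID1B was lost when either mutant array was left out and with no filter, though its fold change moved little. Without exo70A1-2 replicate 1 its log2 fold change was 0.81, and without exo70A1-2 replicate 2 it was 0.73. The SE was larger in both of these fits, which leave 1 mutant array. With no filter on dim probe sets the adjusted p was 0.0506 (limma), at the same fold change. Under a filter at the 20th percentile the adjusted p was 0.0231 (limma). GID1A passed under none of its 13 alternatives, in which its adjusted p ranged from 0.121 to 0.652.

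**Figure D3:**
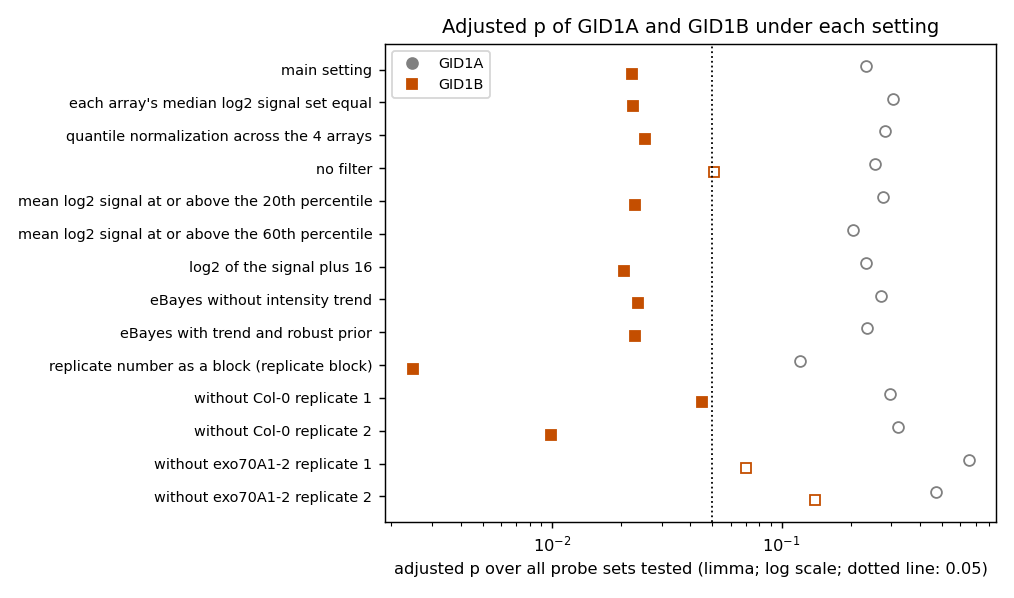
Adjusted p of GID1A (circles) and GID1B (squares) on a log axis, for the main setting and each alternative, with a dotted line at 0.05 and filled symbols where the test was passed. GID1B lies left of the line except with no filter and without either exo70A1-2 array, and has no value with the 60th percentile as the filter; all GID1A values lie right of it.

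Of the wider gibberellin pathway, 68 other genes were listed, from synthesis to targets, and 18 had a probe set of their own name. None of the 5 DELLA genes, the 14 synthesis genes and the 11 inactivation genes was among these, so the hormone's supply and the receptors' direct partners were not analysed here. Of the 18 genes 10 were tested, of which 2 rose and 0 fell, or 20% higher, against 8.54% of all tested probe sets. The median log2 fold change of these 10 was 0.20, and that of all tested probe sets was -0.00086. With 10 genes, this share rests on 2 calls and is not read as a result about the pathway.

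Among the signalling partners, 3 of 11 listed genes were tested and none passed. SLY1, the F-box gene, had a signal of 117 and 106 in exo70A1-2, against 86.4 and 104 in Col-0, a log2 fold change of 0.24 (limma, adjusted p = 0.333). SEC, which encodes the O-GlcNAc transferase SECRET AGENT that modifies DELLA proteins, had 175 and 197 in exo70A1-2, against 152 and 162 in Col-0, with a log2 fold change of 0.24. SPY, the O-fucosyltransferase that modifies the same proteins, stood at -0.03, with 84.4 and 90.6 in exo70A1-2 against 88.3 and 90.0 in Col-0. The genotypes did not overlap for SLY1 and SEC, as for 30.0% of tested probe sets with the mutant higher, and the closest SLY1 arrays differed by 0.03 on the log2 scale. Those of SPY overlapped. The SLY1 relative SLY2, also called SNEEZY, was too dim to be tested, at 21.1 and 24.0 in exo70A1-2 against 19.7 and 22.4 in Col-0. Of the listed gibberellin carriers, AT1G68570 (NPF3.1), a transporter of the NRT1/PTR family, stood at -0.07 and did not pass. SWEET13 and SWEET14, sugar transporters that also carry gibberellin, were not tested, and all but 1 of their 8 values lay under the dim limit.

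Of the 11 genes listed as targets that DELLA proteins raise, a group that is also known to include GID1A and GID1B, 4 were tested and 1 rose, where 8.54% of all tested probe sets did. That gene, AT2G31730, had a signal of 48.9 and 60.3 in exo70A1-2, against 25.6 and 26.8 in Col-0. The genotypes were well apart, and the log2 fold change was 1.05 (SE 0.20) (limma, adjusted p = 0.00951). Without exo70A1-2 replicate 2 the log2 fold change was 0.90 and did not pass (limma, adjusted p = 0.0839). IQD22, which encodes a calmodulin-binding protein of the IQD family, had 39.6 and 50.1 in exo70A1-2, against 31.5 and 31.2 in Col-0, and its log2 fold change of 0.51 did not pass (limma, adjusted p = 0.125). XERICO, a RING protein gene linked to abscisic acid, stood at 0.17 and AT5G50915 at -0.38, and neither passed. The annotation used here gives AT2G31730 and AT5G50915 no name beyond the locus, and their place in the list came from background knowledge.

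GASA genes encode small cysteine-rich secreted proteins, many of them regulated by gibberellin. Of 15 listed, 6 had a probe set of their own name in the annotation used here, and 2 were tested. AT2G14900 rose, with a signal of 177 and 197 in exo70A1-2, against 88.2 and 100.4 in Col-0. This was a log2 fold change of 0.99 (SE 0.14) (limma, adjusted p = 0.00302), and it passed under all 13 alternatives. AT1G22690 had 484 and 491 in exo70A1-2, against 572 and 589 in Col-0, and its log2 fold change of -0.25 did not pass (limma, adjusted p = 0.141). The tested GASA genes thus stood on opposite sides of zero. The other 4 were too dim on average to be tested, with signals of 2.49 to 19.0 in exo70A1-2 and 0.762 to 27.0 in Col-0. Both of these loci also carry no gene name in the annotation and were listed from background knowledge.

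**Figure D4:**
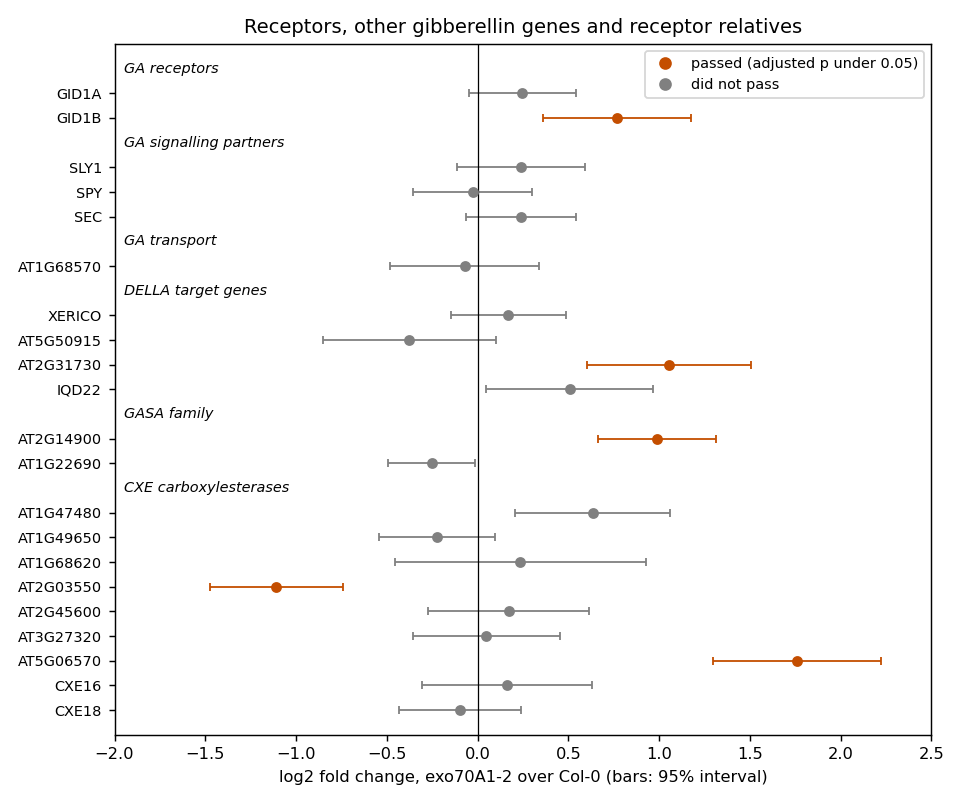
Log2 fold change of exo70A1-2 over Col-0 with its 95% interval for the tested genes of each list, in orange where the adjusted p was under 0.05 and in grey otherwise. Intervals are not adjusted for the number of probe sets; GID1B, AT2G31730 and AT2G14900 passed on the right of 0 in the gibberellin lists, and AT5G06570 and AT2G03550 passed on opposite sides among the carboxylesterases.

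By sequence the receptors belong to a family of carboxylesterases, the CXE genes, from which they differ in having lost the enzyme's activity. Of 17 other members listed by locus, 12 had a probe set of their own name and 9 were tested. Of these 9, 1 rose and 1 fell, where 8.54% and 7.50% of all tested probe sets did. AT5G06570 had a signal of 53.3 and 59.3 in exo70A1-2, against 16.6 and 16.6 in Col-0. Both Col-0 arrays lay under the dim limit, so this gene entered the test through its mutant arrays. Its log2 fold change was 1.76 (SE 0.20), or 3.39-fold, with a 95% interval of 2.46-fold to 4.66-fold (limma, adjusted p = 0.00112). The mutant mean was 2.57 times the dim limit, which sets no lower bound on the rise. With no filter the adjusted p was 0.00656 (limma). AT2G03550 fell, with 104 and 79.9 in exo70A1-2 against 204 and 189.6 in Col-0, a log2 fold change of -1.11 (SE 0.16) (limma, adjusted p = 0.00306). AT1G47480 came near the threshold, with 48.9 and 55.6 in exo70A1-2 against 31.5 and 35.9 in Col-0, and a log2 fold change of 0.63 (limma, adjusted p = 0.0531). It passed in 3 of 12 alternatives, among them without the intensity trend, at 0.63 (limma, adjusted p = 0.0444). With no filter it did not pass (limma, adjusted p = 0.110). Leaving out 1 array gave log2 fold changes of 0.54 to 0.73. The remaining 6 tested members stood between -0.22 for AT1G49650 and 0.24 for AT1G68620. The 9 genes had a median log2 fold change of 0.16. Of 32 receptor genes of other hormones that were listed, 1 had a probe set of its own name, the brassinosteroid receptor gene BRL1, and it was too dim to be tested.

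The genes whose pattern over the 4 arrays was most like that of each receptor were found by Euclidean distance between log2 signals, each centred on the probe set's own mean, among 7300 named and tested probe sets. For GID1B the nearest were AT2G35920 at a distance of 0.029, AT1G33050 at 0.039 and UBC16, which encodes a ubiquitin-conjugating enzyme, at 0.045. AT2G40420, AT5G49710 and the tetraspanin gene TET5 followed at 0.048, 0.054 and 0.058. The signal of AT2G35920 was 88.6 and 92.6 in exo70A1-2, against 48.5 and 56.3 in Col-0. That of UBC16 was 122 and 128 in exo70A1-2, against 69.9 and 81.7 in Col-0. TET5 had 60.6 and 60.5 in exo70A1-2, against 33.3 and 38.6 in Col-0. All 6 shared with GID1B a lower value on Col-0 replicate 1 than on Col-0 replicate 2. Their log2 fold changes lay between 0.73 and 0.79. Both traits follow from the choice by distance and are not separate results.

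For GID1A the nearest was IAGLU, which encodes a glucosyltransferase that conjugates auxin, at a distance of 0.021. Its signal was 110.5 and 101 in exo70A1-2, against 88.5 and 87.4 in Col-0. AT2G31710 at 0.023, AT3G11780 at 0.032, the cell cycle inhibitor gene SIM at 0.034, AT5G11420 at 0.037 and AT5G55550 at 0.038 came next. Their log2 fold changes lay between 0.22 for SIM and 0.27 for AT5G55550, and none of the 6 passed the test. All had their highest value on exo70A1-2 replicate 1, which again follows from the choice by distance. The distances rest on 4 arrays and are set largely by the size of the genotype difference, and the arrays share any effect of brightness or harvest. The groups of nearest genes could have no member in common, since the receptors' own profiles lie further apart than these distances allow.

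**Figure D5:**
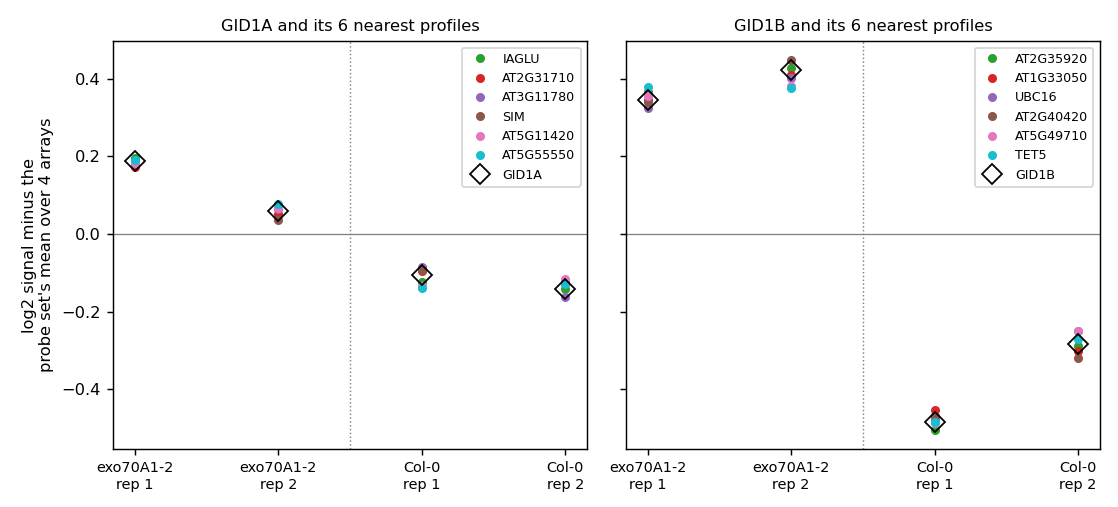
Log2 signal on each array minus the probe set's mean over the 4 arrays, with exo70A1-2 left of Col-0, for GID1A (left) and GID1B (right) as open diamonds and their 6 nearest named genes as coloured dots. The dots lie on or beside the diamonds, at distances of up to 0.038 for GID1A and 0.058 for GID1B; the GID1B group is lowest on Col-0 replicate 1, and the GID1A group is highest on exo70A1-2 replicate 1.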

How the data were processed

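Whole-seedling RNA was measured on 4 ATH1 arrays, and genotype and replicate number were taken from the sample titles. The deposited table holds 1 linear intensity per probe set and array, made by the authors with MAS5 and GCOS per the submitters' processing notes, without versions. The values show a mean of 100 on every array with 2% trimmed at each end. MAS5 subtracts mismatch probes, which makes dim intensities noisy. No scanner file or detection call was used here.

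Log2 was taken with no constant, and 64 control probe sets were left out. Probe sets whose mean log2 signal reached the 40th percentile were tested with limma 3.58.1 in R 4.3.3 (intensity trend, two-sided, no covariates), with Benjamini-Hochberg adjustment over 13648 probe sets and a threshold of 0.05. The fit was tested on simulated data. Names came from the probe annotation and a RefSeq table (assembly TAIR10.1), which also gave gene neighbours. Of 22746 probe sets 13513 had 1 gene, 503 several, and 8730 were unnamed here. The gene lists held 126 genes, matched by locus. Named are the receptors, list members, and the 6 nearest profiles to each. Members and lists were chosen with earlier results of these data known. Alternatives were other scalings, filters and variance priors, log2 of the signal plus 16, the replicate block, and leaving out each array. Figures used matplotlib 3.10.9.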

Additional observations from a re-analysis of the deposited data

How the results depend on the processing

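The GID1B call held in 9 of 12 alternatives. It ended with no filter (log2 fold change 0.77, adjusted p = 0.0506) and without either exo70A1-2 array, and with the 60th percentile as the filter GID1B was not tested. Leaving out 1 array each gave 0.67 to 0.87 for GID1B, 0.18 to 0.31 for GID1A and 0.40 to 0.64 for the difference between them. An array alone in its genotype was then assumed to vary like the others. With 16 added to each signal, these values were 0.57, 0.22 and 0.35. With the replicate number as a block, GID1B kept 0.77 (limma, adjusted p = 0.0025) and GID1A kept 0.25 (limma, adjusted p = 0.121). The block gave 2168 probe sets higher and 2098 lower, against 1165 and 1024. The differences between replicates 1 and 2 correlated at 0.28 between genotypes. With 2 pairs and no label on what they share, the numbers were not taken as pairs. Without the intensity trend 679 were lower. Leaving out 1 array gave 577 to 1696 higher and 396 to 1347 lower, the lowest of each without exo70A1-2 replicate 2. The gibberellin genes called, 3 in the main setting, were 1 with the 60th percentile filter, which left GID1B and AT2G31730 untested, 1 to 3 with 1 array left out, 2 with no filter and 4 with the block. The block added AT1G22690 as lower (limma, adjusted p = 0.0401) and, among the carboxylesterases, AT1G47480 as higher (limma, adjusted p = 0.0143). The causes of the other differences were not tested. Median scaling moved the median of all probe sets to -0.03. Noisy MAS5 values near background limit GID1C.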

Other observations

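Genes beside the receptor loci, taken after values were seen, were read for comparison from the order of protein-coding genes in the RefSeq table, 10 on each side. Of the 20 neighbours of GID1B 9 had a probe set of their own name and 4 were tested, and none passed (limma). The log2 fold changes of those tested lay between 0.05 for AT3G63090 and 0.60 for AT3G62950, with a median of 0.43. Those too dim to be tested stood on both sides of zero, from -0.74 for AT3G63040 to 0.61 for AT3G62920. AT3G63020, the next gene after GID1B, was among these, at -0.32. AT3G62970 stood at 0.42 (limma, adjusted p = 0.0968) and AT3G62930 at 0.43 (limma, adjusted p = 0.172). Of the 20 neighbours of GID1A 11 had a probe set of their own name and 7 were tested, with a median of -0.03. AT3G05180 fell by 0.78 on the log2 scale (limma, adjusted p = 0.0351), and the other 6 did not pass. Probe sets of 4 to 7 neighbours are too few to set against the 8.54% and 7.50% of all tested probe sets that were called higher and lower.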
